A study of Mus musculus with 6 samples.

Results

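Arterial endothelial cells line the arteries and arterioles of the lower abdominal muscle (LAM). Among 63647 barcodes sequenced from 6 male mice, 1559 met a rule for such cells and are called arterial cells below. They were chosen by their own counts of unique molecular identifiers (UMIs, each standing for 1 captured transcript). A barcode had at least 1000 UMIs, at most 10% of them mitochondrial, a UMI of Cdh5 or Pecam1 (adhesion proteins of endothelial junctions), UMIs of at least 2 of the 5 arterial genes Gja4, Gja5, Sema3g, Hey1 and Gkn3, fewer than 2 of the venular genes Selp, Ackr1 and Sele, and none of Pdgfra (fibroblasts) or Myh11 (smooth muscle). The limits on UMIs and mitochondrial share alone left 53443 barcodes. The levels of these 12 genes are therefore given as a description and were not tested.

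The groups were 3 WT mice and 3 littermates that carry human aromatase (Aromhum, labelled Arom), all FVB/N and 9 to 10 weeks old. The transgene is the human gene CYP19A1 under the promoters it uses in human tissues. Aromatase makes estrogen from androgen, and the label of the Arom mice is scrotal hernia. Cells were freed from minced muscle with collagenase and dispase and sequenced by the 10x Genomics 3' protocol without a sort, with 1 mouse of each genotype on each of 3 dates. WT libraries held 249, 317 and 407 arterial cells and Arom libraries 207, 129 and 250, with 848493 to 4662020 UMIs in the arterial cells of a mouse.

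In the arterial wall the endothelium is the layer in contact with blood. Its identity is set early by VEGF and Notch signalling with SOX transcription factors, neighbouring cells are coupled by connexins, and shear stress keeps up nitric oxide synthesis. Gja4 and Gja5 encode connexin 37 and connexin 40, Hey1 a repressor that Notch induces, Sema3g a secreted semaphorin, and Gkn3 a gastrokine.

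The promoters of the arterial genes that chose the cells are shown here, since everything below rests on those genes. RefSeq promoter windows of GRCm38.p6 (the mm10 build of the files), from 250 bases before to 50 after the start, were found for 4 of the 5. They are Gja4 at chr4:127313990-127314289 on the minus strand, Gja5 at chr3:97032152-97032451 on the plus strand, Gkn3 at chr6:87388886-87389185 on the minus strand and Sema3g at chr14:31217623-31217922 on the plus strand. Capitals mark matches, on either strand, to TGGGAA, the core bound by the Notch effector RBPJ, or to ACAAT, the core bound by SOX factors.
Gja4: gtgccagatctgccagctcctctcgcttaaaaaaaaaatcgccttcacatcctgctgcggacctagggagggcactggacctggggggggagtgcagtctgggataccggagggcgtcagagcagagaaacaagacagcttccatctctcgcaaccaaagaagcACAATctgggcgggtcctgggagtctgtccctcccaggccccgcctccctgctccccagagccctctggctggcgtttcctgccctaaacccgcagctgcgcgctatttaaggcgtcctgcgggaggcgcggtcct
Gja5: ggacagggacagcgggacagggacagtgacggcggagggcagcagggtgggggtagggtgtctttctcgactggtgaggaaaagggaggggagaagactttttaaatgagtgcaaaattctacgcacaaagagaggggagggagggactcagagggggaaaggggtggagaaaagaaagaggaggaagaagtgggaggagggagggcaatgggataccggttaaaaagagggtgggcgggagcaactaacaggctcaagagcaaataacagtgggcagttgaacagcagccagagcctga
Gkn3: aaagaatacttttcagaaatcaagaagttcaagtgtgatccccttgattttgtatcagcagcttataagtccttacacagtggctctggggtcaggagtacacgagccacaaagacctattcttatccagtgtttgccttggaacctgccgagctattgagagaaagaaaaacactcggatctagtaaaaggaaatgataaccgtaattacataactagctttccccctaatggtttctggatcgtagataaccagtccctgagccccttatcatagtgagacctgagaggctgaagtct
Sema3g: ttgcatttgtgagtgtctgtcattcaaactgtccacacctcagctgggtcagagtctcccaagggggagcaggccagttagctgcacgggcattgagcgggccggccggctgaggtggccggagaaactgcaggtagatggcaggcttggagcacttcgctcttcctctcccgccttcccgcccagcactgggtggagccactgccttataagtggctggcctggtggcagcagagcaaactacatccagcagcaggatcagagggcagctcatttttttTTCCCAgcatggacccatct
Sema3g held 1 match to the RBPJ core and none to the SOX core, and Gja4 held 1 match to the SOX core and none to the RBPJ core. Neither was found in the windows of Gja5 and Gkn3. Of 32851 promoter windows of the same length, 25.6% held the RBPJ core and 31.0% the SOX core, and the matches are given as letters in these windows.

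The arterial label was checked on Stmn2, an arterial marker that the rule did not use and which encodes a microtubule protein. A Stmn2 UMI was present in 84.5% of arterial cells (median 7548 UMIs). It was present in 19.4% of the other blood endothelial cells that held none of the 5 genes (3970 UMIs), 29.2% of venular cells (7514 UMIs), 3.28% of fibroblasts (10972.5 UMIs) and 1.49% of mural cells (4411 UMIs). Mural cells are the pericytes and smooth muscle cells that wrap the vessel. The Stmn2 level in CPM (UMIs of the gene for every 1000000 UMIs of those cells) was 602 ± 145 in arterial and 85.3 ± 26.9 in other blood endothelial cells (SD, n = 6 mice). Stmn2 was thus higher in arterial cells in 6 of 6 mice, with a median log2 ratio of 2.85 and a range of 2.22 to 3.30.

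The rule genes themselves were unevenly seen. Sema3g had a UMI in 74.5% of the arterial cells, Hey1 in 64.8%, Gja4 in 63.4%, Gja5 in 38.2% and Gkn3 in 32.1%. Sema3g with Hey1 was the most frequent pair, in 721 cells, and Hey1 with Gkn3 the least frequent, in 170. Gja4 was also seen in 30.4% of mural cells, so it is not specific to endothelium in this tissue. The cells held 2 of the 5 genes in 800 cases, 3 in 445, 4 in 251 and all 5 in 63, with median UMIs of 6185.5, 7467, 10734 and 13266.

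Just outside the threshold lay 2235 endothelial cells with 1 arterial gene (median 5678 UMIs), in a gate that was otherwise the same. Stmn2 was at 206.8 ± 26.9 CPM in them, against 440.5 ± 105.3 CPM in arterial cells with exactly 2 of the genes. Cytl1, a secreted cytokine-like protein, was at 81.7 ± 40.7 and 404 ± 253 CPM. With 5 genes Stmn2 was at 804 ± 189 and Cytl1 at 2748 ± 1826 CPM (SD, n = 6 mice throughout). Both genes were lower just outside the threshold than just inside it, and the cells outside also held more of the lymphatic genes Ccl21a (2641 against 342 CPM) and Mmrn1 (236 against 34.7 CPM).

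A second set of markers was found in part of the arterial cells. At least 2 of the mural genes Rgs5, Pdgfrb, Notch3, Kcnj8, Cspg4 and Des had UMIs in 300 of the 1559 cells, with a median of 4 of the 6. These cells were deeper, at a median of 11929 UMIs against 6592 in the others. Rgs5, a regulator of G proteins in pericytes, stood at 2975 ± 265 CPM in them and 127 ± 30.4 CPM in the others, while Cytl1 stood at 207 ± 293 and 1739 ± 957 CPM. Their share was 23.7%, 22.4% and 20.6% of arterial cells in WT and 12.6%, 23.3% and 12% in Arom mice. At least 2 lymphatic genes were found in 18 arterial cells, 14 of them from WT mice, and some of the 18 also held mural genes. Whether these are 2 cells in 1 droplet was not tested, because Scrublet marked 0 barcodes in the 3 WT libraries, where its threshold has not worked, and 1.35% to 2.92% in the Arom libraries. Of the 300, 14.3% were among the 8% of barcodes with the highest doublet scores in their library. When both kinds are dropped 1245 cells are left, and the main calls between genotypes are also given for those. In all, 471 barcode sequences occurred in more than 1 library, and 22 arterial cells carried one of them.

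Against the other blood endothelial cells, arterial cells had more of most arterial identity genes and Notch ligands and receptors, and less of part of the capillary genes. Because the rule separated these 2 groups, this contrast is a description with no test. Of 5925 genes at 20 CPM or more in either group, 22.1% were higher and 21.9% lower in 6 of 6 mice. Of the arterial identity genes outside the rule, 26 of 33 were higher in 6 of 6 mice.

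Of the genes outside the rule with at least 50 CPM in the higher group, Cytl1 showed the largest ratio, at 1333 ± 838 CPM against 5.25 ± 4.52 CPM (median log2 ratio 7.74). Bmx, a tyrosine kinase of arterial endothelium, was at 56.4 ± 20.7 against 0.31 ± 0.18 CPM (5.56). Fbln5, which helps assemble elastic fibres, was at 349 ± 125 against 32.4 ± 10.6 CPM (3.34).

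Mgp, an inhibitor of vessel calcification, was at 3030 ± 1833 against 348 ± 150 CPM (2.91). Vegfc, a lymphatic growth factor, was at 123 ± 22.6 against 14.8 ± 3.32 CPM (3.01). Edn1, the precursor of the vasoconstrictor endothelin-1, was at 314 ± 82.3 against 48.2 ± 17.2 CPM (2.78). The other genes outside the rule among the 20 with the largest ratios were Klk10, Atp2a3, Vcam1, Gdf15, Tmem158, Sdcbp2, Stmn2, Alpl and Cd24a, at 2.74 to 4.17.

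Dll4 and Jag1, the Notch ligands of arterial endothelium, stood at 183 ± 27.7 and 79.4 ± 17.5 CPM, with log2 ratios of 1.17 and 1.56. In arterial cells Dll4 was at 208, 179 and 190 CPM in WT and 155, 148 and 217 CPM in Arom mice. In the other blood endothelial cells Dll4 was at 133, 102 and 108 CPM in WT and 52.8, 48.8 and 64.0 CPM in Arom mice. Its ratio was thus larger in every Arom mouse than in any WT mouse. Of 8 Notch ligands and receptors 7 were higher in 6 of 6 mice and Notch2 was lower, and Notch1 stood at 347 ± 38.3 CPM (1.09). When Cdh5 and Pecam1 both had to have a UMI, in arterial and comparison cells alike, 3 of the 8 were still higher in every mouse. Sox17, the SOX factor of arterial specification, did not separate the cells over the 6 mice together. It was at 336 CPM in the other endothelial cells, with a median ratio of 0.07 and a higher level in 3 of 6 mice. In all endothelial cells with 0 arterial genes, lymphatic ones included, Sox17 was at 367, 383 and 473 CPM in WT mice. In Arom mice it was at 228, 204 and 269 CPM there.

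Of the elastic fibre and matrix genes 6 were higher and 5 lower in 6 of 6 mice, and of the vasoactive genes 6 were higher and 3 lower. Some vasoactive and channel genes were picked after their values were seen. Ece1, which cleaves the endothelin precursor, had a log2 ratio of 1.38, and Ace, which makes angiotensin II, 1.94. Nos3, the endothelial nitric oxide synthase, had 1.09. Among channels, Trpv4 had 2.92 and Kcnn4 2.10, a calcium channel and a calcium-activated potassium channel that act in vessel dilation. All 5 were higher in 6 of 6 mice.

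Part of the capillary genes were lower. Aqp1, a water channel, had a median log2 ratio of -2.24, Lpl (lipoprotein lipase) -1.20, Car4 (carbonic anhydrase 4) -1.15, and Timp4 (a metalloproteinase inhibitor) -1.02. Of the 16 capillary genes 7 were lower in 6 of 6 mice, and 14 with both Cdh5 and Pecam1 required. Btnl9 went the other way (1.40). The 10 genes with the lowest ratios by the fixed rule were Retnla, Lyz1, Sfrp5, Trem2, Il1b, Krt19, Bcl2a1b, Ccl9, Ccl4 and Nkain4, from -5.99 to -4.06. Most are genes of macrophages or mesothelium, and the comparison cells also held immune markers (653 ± 139 CPM summed in WT and 1678 ± 1173 in Arom mice) and mesothelial markers (160 ± 95.7 and 1378 ± 212 CPM). With both endothelial genes required those sums were 421 ± 90.4 and 752 ± 387 CPM for immune and 34.9 ± 24.1 and 105.1 ± 27.9 CPM for mesothelial markers.

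**Figure D1:**
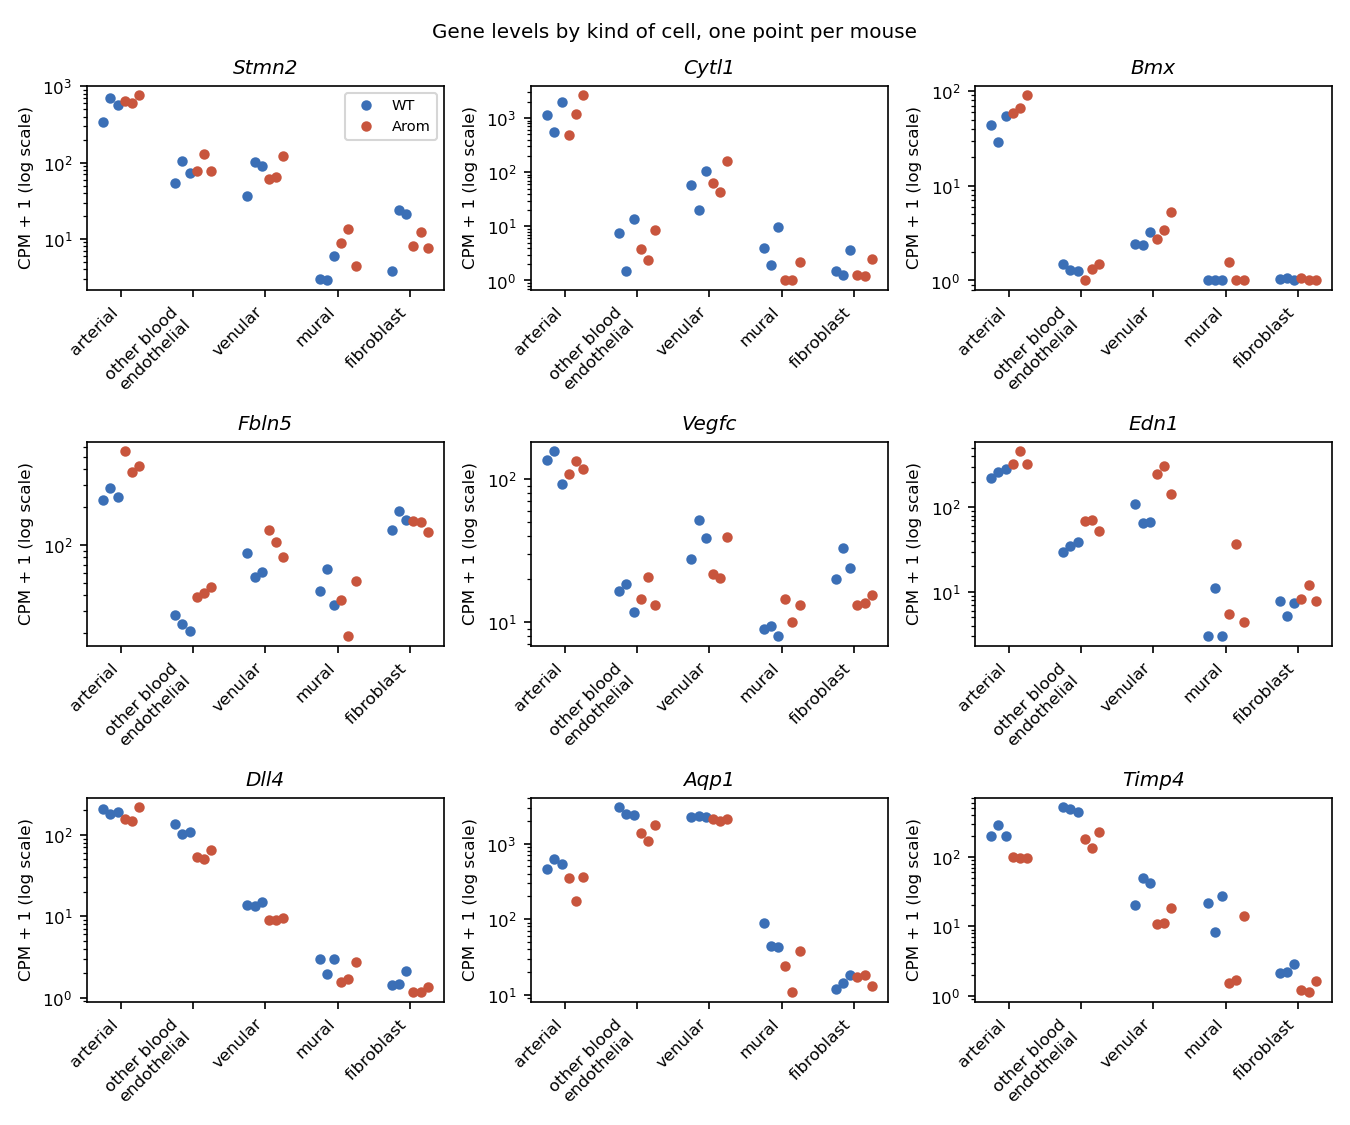
Levels of 9 genes that the rule did not use, in 5 kinds of cell; the y axis is CPM plus 1 on a log scale and each point is 1 mouse (blue WT, red Arom). Stmn2, Cytl1, Bmx and Fbln5 are higher in arterial than in other blood endothelial cells in all 6 mice, and Aqp1 and Timp4 are lower.

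Venular cells shared part of the pattern, as the plot of marker levels by kind of cell shows for Edn1. Vcam1, which is not in that plot, was at 909 CPM in venular and 583 ± 255 CPM in arterial cells, against 38.9 ± 17.4 CPM in the others. Edn1 was at 156 CPM in venular cells. Cytl1 and Bmx, at 74.0 and 2.25 CPM in venular cells, were higher over all arterial cells than in both. In the arterial cells without a Gkn3 UMI, Cytl1 was at 57.5 ± 40.9 CPM, near the venular level.

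A Gkn3 UMI was found in 500 arterial cells and none in 1059, and the levels of Cytl1 and Mgp were higher, and those of Cd300lg and Gpihbp1 lower, in the cells with one. Both had similar depth (median 7401 and 7668 UMIs). At least 2 mural genes were found in 4.60% of the former and 26.2% of the latter. The levels below therefore come from the 474 and 771 cells without mural or lymphatic genes, at median depths of 7049.5 and 6190 UMIs. Gkn3 is a rule gene and the split was made on its counts, and no test was run; the genes named were picked from those with the largest ratios.

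Cells with Gkn3 held 3779 ± 1644 CPM of Cytl1, against 88.8 ± 54.2 CPM without (SD, n = 6 mice). Mgp was at 7964 ± 3149 against 363 ± 344 CPM. Bgn, a proteoglycan of the vessel wall, was at 1415 ± 429 against 111 ± 99.0 CPM, and Lox, which cross-links elastin and collagen, at 176 ± 59.8 against 23.5 ± 18.3 CPM. All 4 were higher in 6 of 6 mice.

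Of genes also known from venules, Vcam1 was at 1484 ± 415 against 199.6 ± 182.5 CPM. Selp (P-selectin, which captures leukocytes) was at 453 ± 255 against 10.0 ± 12.8 CPM, although the rule had capped the number of venular genes. Slco2a1, a prostaglandin carrier, was at 193 ± 76.7 against 13.6 ± 13.5 CPM.

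Several genes that lay on the other side are known from capillaries. Cd300lg was at 6.98 ± 6.99 CPM with Gkn3 and 343 ± 79.1 CPM without. Gpihbp1, which anchors lipoprotein lipase on capillaries, was at 38.7 ± 16.4 against 964 ± 266 CPM, and Kdr, the main VEGF receptor, at 37.4 ± 14.1 against 364 ± 56.8 CPM. Cxcl12, a chemokine, was at 63.2 ± 12.04 against 892 ± 354 CPM. Rbp7 stood at 218 ± 128 against 2014 ± 416 CPM. Each was lower with Gkn3 in 6 of 6 mice, as was Cd36, at 177 ± 116 against 1363 ± 345 CPM. The other blood endothelial cells held Gpihbp1 at 1182 CPM and Cd36 at 1141 CPM, nearer the levels without Gkn3 than those with it. They held Cytl1 at 5.25 ± 4.52 CPM, against 88.8 ± 54.2 CPM in the arterial cells without Gkn3.

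**Figure D2:**
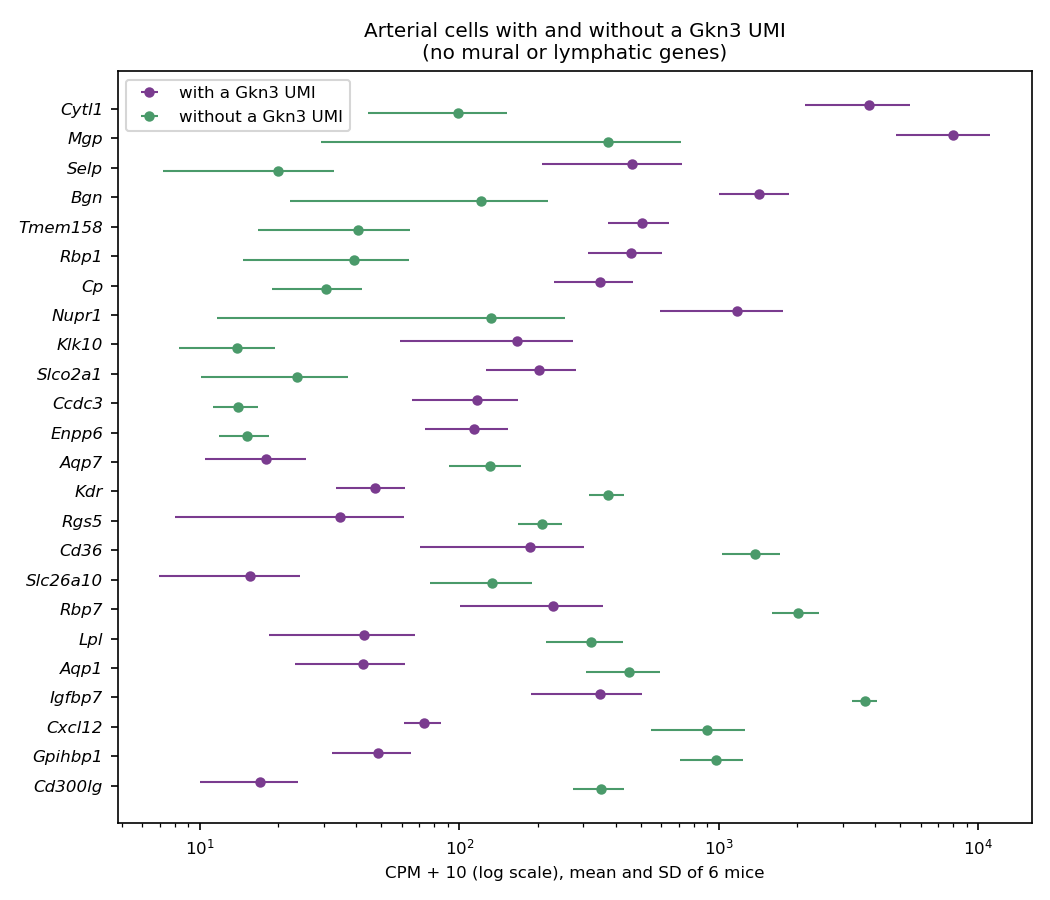
Arterial cells with a Gkn3 UMI (purple) and without one (green), leaving out cells with mural or lymphatic genes; the x axis is CPM plus 10 on a log scale, and points and bars are the mean and SD of 6 mice. The 12 genes at the top were higher with Gkn3 in 6 of 6 mice and the 12 at the bottom lower, from Cytl1 (3779 against 88.8 CPM) to Cd300lg (6.98 against 343 CPM).

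The share of arterial cells with a Gkn3 UMI was 35.7%, 20.5% and 30.7% in WT and 33.8%, 29.5% and 45.2% in Arom mice. The ranges of the genotypes overlapped.

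The share of arterial cells did not pass the test between genotypes. They were 8.50%, 11.3% and 13.1% of the blood endothelial cells in WT and 8.99%, 6.48% and 11.3% in Arom mice, means of 11.0% ± 2.32 and 8.93% ± 2.42 (SD, n = 3, exact permutation test, 2-sided, p = 0.4). Of all barcodes in the limits they were 2.92%, 4.29% and 6.02% in WT and 1.94%, 1.06% and 3.17% in Arom mice, 4.41% ± 1.55 against 2.05% ± 1.06 (SD, n = 3, exact permutation test, p = 0.2). The lowest p that 3 against 3 mice allow is 0.1. Neither difference passed the test, and the groups overlapped in both shares. Paired by number, the share of barcodes was lower in Arom in 3 of 3 pairs (sign-flip test, exact permutation, p = 0.25, the lowest that 3 pairs allow).

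Arterial cells had median depths of 8128, 8178 and 9068 UMIs in WT and 5958, 5491 and 7507 in Arom mice, and the rule needs 2 genes to be seen. Thinned to 1000 UMIs, the share of blood endothelial cells was 1.62%, 2.38% and 3.14% in WT and 2.87%, 2.10% and 3.72% in Arom mice, and the mean turned to 0.516 percentage points above WT (exact permutation test, p = 0.5). Thinned to 3000 UMIs the Arom mean was 0.221 points below (exact permutation test, p = 1). At 3000 UMIs cells with fewer UMIs were left out, with 6619 of 8523 barcodes of WT replicate 1 remaining. The share of all barcodes stayed lower in the Arom mean when thinned, 1.42% ± 0.833 against 2.87% ± 1.1245 at 3000 UMIs (exact permutation test, p = 0.2) and 0.550% ± 0.302 against 0.862% ± 0.440 at 1000 UMIs (exact permutation test, p = 0.5). The cells of the libraries also differed in other types, with 906 to 2127 fibroblasts in a WT and 2276 to 4918 in an Arom library, and their part in the share of all barcodes was not tested.

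**Figure D3:**
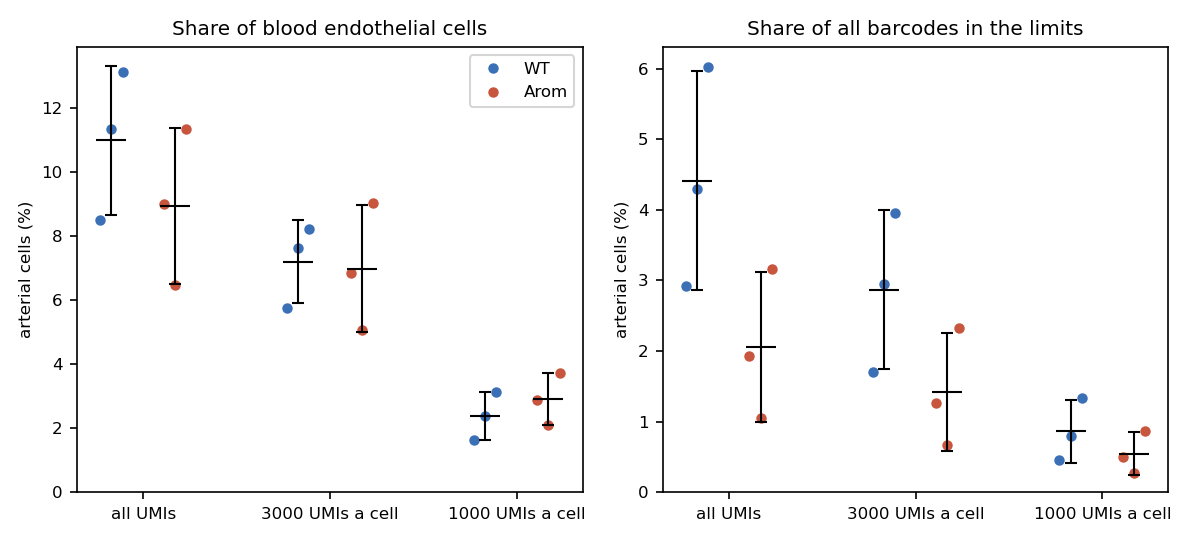
Arterial cells as a percent of blood endothelial cells (left) and of all barcodes in the limits (right), with all UMIs and after thinning cells to 3000 or 1000 UMIs. Cells under 3000 UMIs were left out at 3000 UMIs. Points are mice (blue WT, red Arom) and bars mean and SD. The groups overlap in every panel, and the mean of the left panel is lower in Arom with all UMIs and higher at 1000 UMIs.

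Between genotypes, the UMIs of the arterial cells were summed per mouse and tested by quasi-likelihood in edgeR over 9484 genes, and p-values were adjusted after Benjamini and Hochberg. Lgals3 and Basp1 were higher in Arom mice, and no gene was lower (2 called, 0.0211% of the genes tested). Both were also called in the other blood endothelial cells, where 3268 of 12843 genes (25.4%) were called. At an unadjusted p under 0.05 stood 1131 genes, 611 higher and 520 lower.

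The planned fit had no block. Mice of the same number, 1 of each genotype, had correlations of 0.226, 0.110 and 0.307 between their deviations from the group means. Mice of different numbers were not compared, and the labels give no dates. With that number as a block 243 genes passed (2.56%), 158 higher (1.67%) and 85 lower (0.896%), both of the first 2 among them. The genes named as passing "with the block" come from that fit, and their adjusted p without it is given where it matters.

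Lgals3, galectin-3, a lectin found in activated and matrix-producing cells, was at 105, 73.3 and 74.4 CPM in WT and 261, 232 and 205 CPM in Arom mice. Every Arom mouse lay above every WT mouse. The log2 fold change was 1.45 (SE 0.18, edgeR adjusted p = 0.045).

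Basp1, a membrane-bound cytoskeletal protein, was at 5.68, 3.34 and 6.86 CPM in WT and 32.0, 25.9 and 25.1 CPM in Arom mice, from 11 to 32 and 22 to 60 UMIs. The groups did not overlap (log2 fold change 2.32, SE 0.28, edgeR adjusted p = 0.045). Fibroblasts held both genes at more, Basp1 at 126 CPM in WT and 219 CPM in Arom and Lgals3 at 223 and 480 CPM, and the part of RNA from other cells in these 2 results was not tested.

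Both calls were lost when WT replicate 2 (adjusted p 0.16 and 0.11 for Lgals3 and Basp1), Arom replicate 1 (0.10 for both) or Arom replicate 2 (0.10 for both) was left out, and that of Lgals3 without WT replicate 3 (0.060). Both were also lost with at least 3 arterial genes (0.27 for both), without marked doublets (0.11 and 0.12) and without the highest doublet scores (0.20 and 0.48). Basp1 was at 0.97 in the last of these, and with Cdh5 and Pecam1 both required its adjusted p was 0.074. Thinning to 1000 UMIs ended the call of Lgals3 (adjusted p = 0.23), and the study's limits on genes and mitochondrial share brought Lgals3 to 0.26 (adjusted p = 0.85). Without the cells that held mural or lymphatic genes 43 genes passed (0.498%) in place of 2, with Lgals3 at 1.55 (adjusted p = 0.016) and Basp1 at 2.50 (adjusted p = 0.0089).

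Of 16 capillary genes, 9 passed the test as lower in the arterial cells of Arom mice with the block, and none passed without it. With the block 0.896% of all genes tested passed lower. All 16 had a negative log2 fold change (median -0.62, against -0.0020 over all genes tested), 12 of 16 did not overlap between the groups (7.56% of all genes did not overlap and were lower), and 13 had an unadjusted p under 0.05. Without mural or lymphatic cells 6 passed with the block, and Car4 (adjusted p = 0.089), Lpl (0.051) and Aqp1 (0.11) did not. Fabp4, the member with the most UMIs, did not pass (-0.28, adjusted p = 0.62, and 0.17 with the block). The 9 that passed with the block were Timp4, Car4, Tcf15, Cd36, Aqp7, Btnl9, Gpihbp1, Lpl and Aqp1.

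Timp4 was at 197, 288 and 197 CPM in WT and 97.2, 96.6 and 96.1 CPM in Arom mice. Its log2 fold change was -1.25 (SE 0.16, adjusted p = 0.056), and it passed with the block (-1.22, SE 0.15, adjusted p = 0.0044). The 3 Arom mice lay close together and below every WT mouse.

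Tcf15, a transcription factor of capillary endothelium and fatty acid uptake, was at 320, 370 and 353 CPM in WT and 220, 219 and 185 CPM in Arom mice. Its log2 fold change was -0.77 (SE 0.13, adjusted p = 0.069, and 0.012 with the block). Cd36, a fatty acid carrier, was at 1105, 1508 and 981 CPM in WT and 770, 1023 and 579 CPM in Arom mice, where the groups overlapped (-0.62, adjusted p = 0.29, and 0.014 with the block). Gpihbp1 was at 816, 947 and 770 CPM against 606, 437 and 547 CPM (-0.69, adjusted p = 0.14, and 0.027 with the block).

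Capillary genes also differed between cells with and without Gkn3, and the part of that in these values was not tested. Within the cells without a Gkn3 UMI, 15 of the 16 had a negative change, with a median of -0.45, and 5 passed with the block (279 of 8301 genes, 3.36%, passed in that fit). Within the cells with a Gkn3 UMI, where edgeR called 0 of 6129 genes with or without the block (358 and 444 at an unadjusted p under 0.05), 11 of 13 tested had a negative change (median -0.47), Lpl being at 0.55. With the study's limits Lpl was at 0.045. In the other blood endothelial cells Timp4 had -1.50, Tcf15 -1.25, Cd36 -0.99 and Gpihbp1 -1.05, all called by edgeR (25.4% of 12843 genes were called there). Fibroblast markers in those cells summed to 13078 ± 836 CPM in Arom and 5391 ± 1019 CPM in WT mice. General endothelial genes were also lower in Arom endothelial cells with 0 arterial genes, lymphatic ones included. Cdh5 was at 701, 870 and 921 CPM there in WT and 446, 517 and 566 CPM in Arom mice. Pecam1 was at 541, 554 and 584 against 414, 440 and 463 CPM. The part of RNA from other cells in these changes was not tested.

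Heat shock and other immediate early genes, which dissociation of tissue is known to induce, were also lower, 17 of 19 with a median of -0.41. Of the 19, 11 lay below WT without overlap, against 7.56% of all genes tested. None passed without the block. With it Hspa1a, Hspa1b, Ier2, Dnajb1 and Zfp36 passed lower, as did 0.896% of all genes tested. Dnajb1 and Zfp36 no longer passed with the block without mural or lymphatic cells (adjusted p 0.057 and 0.085). Hspa1a, the inducible Hsp70, was at 750, 1094 and 1050 CPM in WT and 467, 445 and 547 CPM in Arom mice (-1.004, SE 0.165, adjusted p = 0.069, and 0.0045 with the block). The genotypes did not overlap.

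Interferon-induced genes had negative changes in 16 of 17 (median -0.23). Without overlap 3 of the 17 were lower, against 7.56% of all genes tested. With the block 3 passed lower, as did 0.896% of all genes tested. Irgm1, an immunity-related GTPase, was at 341, 351 and 349 CPM in WT and 178, 189 and 216 CPM in Arom mice (-0.86, SE 0.13, adjusted p = 0.069, and 0.0075 with the block). The WT mice lay close together and above all Arom mice. Iigp1 (-0.63) and Isg15 (-0.52) passed with the block, at adjusted p of 0.021 and 0.031, and Iigp1 turned to 0.10 with the study's limits. Isg15 did not pass without mural or lymphatic cells (adjusted p = 0.072 with the block). Of the genes of antigen presentation, H2-Q4 passed with the block (-0.60, adjusted p = 0.048) but not without mural or lymphatic cells (0.11), and 11 of 14 had a negative change.

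Matrix and elastic fibre genes lay in the other direction, 16 of 18 positive with a median of 0.60 and 7 without overlap (9.7% of all genes did not overlap and were higher). Fbln5, Eln, Fn1, Ltbp3 and Bgn passed higher with the block, as did 1.67% of all genes tested. Fbln5 was at 225, 283 and 240 CPM in WT and 552, 377 and 419 CPM in Arom mice (0.83, SE 0.16, adjusted p = 0.11, and 0.022 with the block). No Arom mouse overlapped WT. Eln, tropoelastin, was at 77.8, 89.1 and 266 CPM against 252, 167 and 493 CPM and overlapped (1.06, adjusted p = 0.44, and 0.0070 with the block). Fn1, fibronectin, was at 259, 264 and 343 CPM against 546, 395 and 535 CPM (0.75, adjusted p = 0.16, and 0.015 with the block). Col18a1, a basement membrane collagen, was at 34.5, 54.7 and 42.0 CPM against 244, 119 and 104 CPM (1.80, SE 0.30, adjusted p = 0.069, and 0.0085 with the block).

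Fibroblast genes moved with them. All 7 fibroblast markers that could be tested had a positive log2 fold change (median 1.31), with Col1a2, Col3a1, Lum, Mfap5 and Pi16 passing with the block (Pi16 turned to -0.39 with the study's limits, and the other 4 did not pass without mural or lymphatic cells, at adjusted p of 0.10 to 0.16), and their sum in arterial cells was 638 to 1417 CPM in WT and 1846 to 3096 CPM in Arom mice. Without mural or lymphatic cells all 7 stayed positive (median 1.03), and 2 passed higher without the block and 2 with it. Pdgfra was at 0 by the rule. Col3a1 stood at 115, 158 and 142 CPM in WT and 946, 191 and 470 CPM in Arom arterial cells, against 5555 and 10493 CPM in fibroblasts.

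Of the 158 genes that passed higher with the block, 100 (63.3%) were at a higher level in the fibroblasts of Arom mice than in their arterial cells, against 43.0% of all genes tested and 25.9% of the 85 that passed lower. Fbln5 was higher in arterial cells (449 against 144 CPM in fibroblasts of Arom mice), Eln (304 against 638 CPM) and Fn1 (492 against 1665 CPM) in fibroblasts. The part of fibroblast RNA in the higher genes was not tested. Without the cells of mural or lymphatic genes 100 of 8629 genes passed with the block (1.16%), Eln among them at an adjusted p of 0.028, while Fbln5 (0.060) and Fn1 (0.066) did not.

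**Figure D4:**
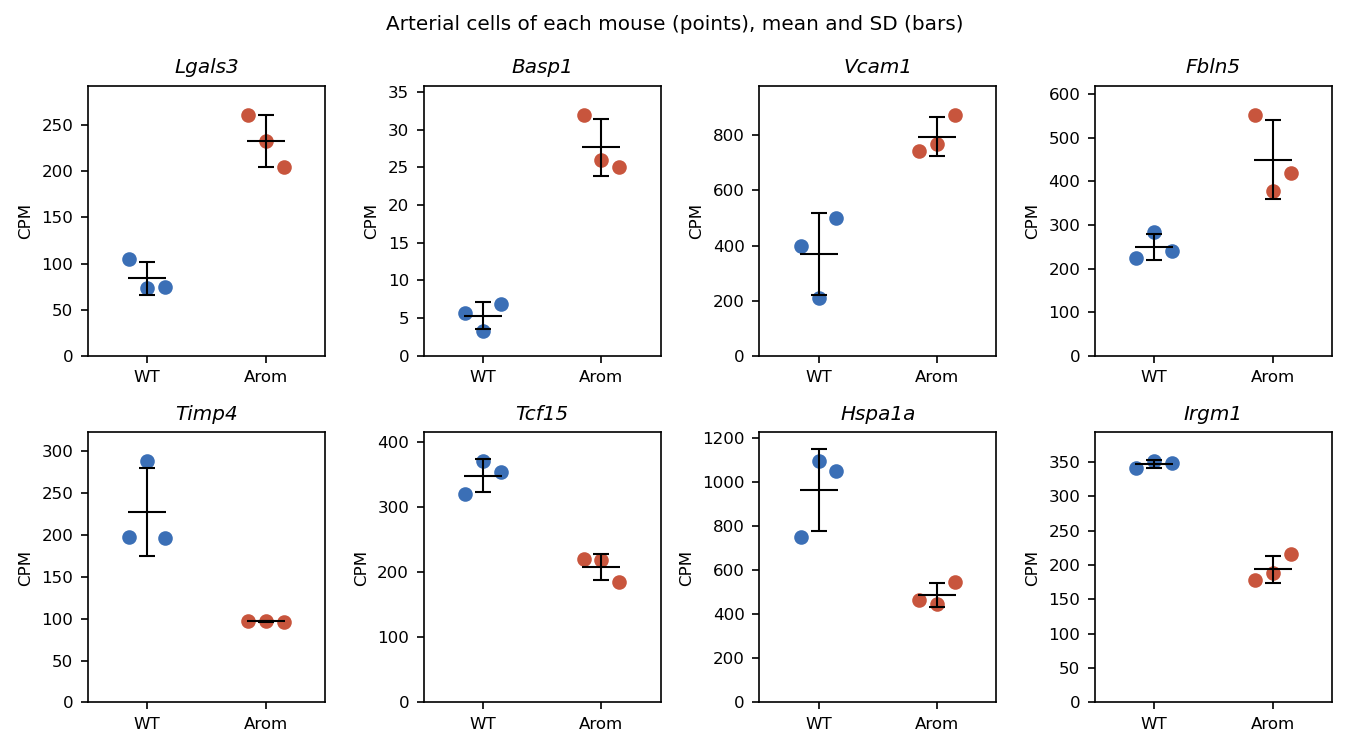
CPM of 8 genes in the arterial cells of each mouse, WT in blue and Arom in red, with mean and SD as black bars and y axes from 0. Lgals3 and Basp1 passed the test without the replicate block, and the other 6 passed with it; WT and Arom points do not overlap in any panel.

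The plot of CPM by mouse also shows Vcam1, the ligand of leukocyte integrins, at 399, 210.0 and 501 CPM in WT and 741, 769.6 and 874 CPM in Arom mice. Its log2 fold change was 1.07 (SE 0.27, adjusted p = 0.18, and 0.012 with the block). Genes known from veins passed with it with the block: Vwf (0.85), Tmem252 (1.17), Lrg1 (2.32) and Plvap (1.39). Of 12 venous genes tested, 7 had a positive change and 5 passed higher with the block, as did 1.67% of all genes tested. Vwf, von Willebrand factor, was at 86.9, 62.6 and 94.2 CPM in WT and 136, 171 and 144 CPM in Arom mice and is near 0 in fibroblasts (0.86 CPM in Arom mice). Plvap was at 79.5, 55.0 and 46.1 CPM against 246, 187 and 53.9 CPM, where Arom replicate 3 lay within the WT range. In fits without mural or lymphatic cells, and with the block, Lrg1 and Tmem252 passed and Vcam1 did not. The WT libraries held 463, 255 and 367 venular cells and the Arom libraries 870, 547 and 581. The part of venular RNA in these values was not tested.

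Of the genes that passed with the block, 58 of 158 higher and 63 of 85 lower had lower levels in fibroblasts than in arterial cells. Of all genes tested 5403 of 9484 did. Sdcbp2, Avpi1, Cdkn1c and Ier5l also stood among the smallest p-values of that fit, and the part of RNA from other cells in them was not tested. Sdcbp2, a syntenin, was at 34.1, 23.1 and 21.0 CPM in WT and 109, 53.0 and 73.5 CPM in Arom mice (1.61, SE 0.27, adjusted p = 0.069, and 0.0021 with the block), against 0.49 CPM in the fibroblasts of Arom mice. Avpi1 was at 145, 89.7 and 107 CPM against 351, 216 and 243 CPM (1.22, adjusted p = 0.091, and 0.0021 with the block), and at 25.9 CPM in those fibroblasts. Cdkn1c, an inhibitor of the cell cycle, was at 283, 461 and 376 CPM in WT and 169, 203 and 192 CPM in Arom mice (-1.01, adjusted p = 0.076, and 0.0045 with the block). Ier5l was at 703, 631 and 527 CPM against 288, 249.9 and 369.8 CPM (-1.05, adjusted p = 0.069, and 0.0090 with the block). In these 4 genes no Arom mouse overlapped WT.

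Arterial identity genes lay in both directions. Of 33 identity genes outside the rule 19 were higher and 14 lower in Arom (median 0.07). Without overlap 7 were higher and 3 lower, against 9.7% and 7.56% of all genes tested. Over all arterial cells none passed without the block, and 3 higher (Fbln5, Eln, Clu) and 1 lower (Alpl) passed with it. In cells without a Gkn3 UMI 8 of 32 passed higher and 1 lower with the block, where 197 and 82 of 8301 genes did. In cells with a Gkn3 UMI 0 of 32 passed. Clu, clusterin, was at 802, 411 and 954 CPM against 1258, 1115 and 1390 CPM (0.77, adjusted p = 0.31, and 0.026 with the block), and did not pass without mural or lymphatic cells (0.13 with the block). Stmn2 was at 343, 698 and 563 CPM in WT and 642, 602 and 764 CPM in Arom mice (0.31, adjusted p = 0.63), with overlapping groups. Among the rule genes, given without a test, Gja5 was at 56.4, 46.8 and 87.3 CPM in WT and 140, 131 and 141 CPM in Arom mice, and Sema3g at 126, 147 and 155 against 267, 215 and 232 CPM. Gja4, Hey1 and Gkn3 overlapped between genotypes. These genes chose the cells, whose median depths were 5491 to 7507 UMIs in Arom and 8128 to 9068 UMIs in WT mice. A cell needed 2 of the 5 genes at any depth, and the part of this in these levels was not tested.

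Notch ligands and receptors had 5 of 8 positive changes (median 0.10) and none passed in either fit. Of their targets and modulators Hes1, a repressor induced by Notch, passed with the block at 588, 843 and 619 CPM in WT and 371, 435 and 497 CPM in Arom mice (-0.67, adjusted p = 0.18, and 0.029 with the block). Of 19 vasoactive genes, Ramp3 (1.42), a partner of the adrenomedullin receptor, and Ptgs2 (0.60), an inducible prostaglandin synthase, rose and Adm (-0.86), adrenomedullin, fell with the block. The direction of Ptgs2 turned with at least 3 arterial genes (-0.54), without the highest doublet scores (-0.13) and in cells with a Gkn3 UMI (-0.75), and that of Adm in cells with a Gkn3 UMI (0.25). Among channels Trpv4 (1.14) and Kcnn4 (0.81) rose with the block. In the fit with the block on cells without mural or lymphatic genes, these 5 did not pass, at adjusted p of 0.051 (Ramp3), 0.48 (Ptgs2), 0.10 (Adm), 0.12 (Trpv4) and 0.12 (Kcnn4). Of the TGF-beta and BMP genes 2 rose with the block, among them Tgfbr2 (0.84), and 1, Id3 (-0.51), fell. Without mural or lymphatic cells no gene of that list passed higher with the block (Tgfbr2 at an adjusted p of 0.090). Of coagulation genes 3 rose with the block, among them Vwf and Anxa2 (0.59), and 0 of 11 passed with the block without mural or lymphatic cells (1202 genes in all at an unadjusted edgeR p under 0.05).

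No gene of the shear stress, VEGF, axon guidance or proliferation lists passed in either fit. Their medians were 0.04 (11 tested), -0.17 (15), -0.01 (13) and 0.94 (6). The summed level of the proliferation genes went the other way, at 211 to 259.6 CPM in WT and 198 to 208 CPM in Arom mice. Klf2, a factor that shear stress induces, stood at 1977 ± 536 CPM, Flt1, a VEGF receptor, at 863 ± 87.0 CPM and Efnb2, the ephrin of arteries, at 157 ± 21.6 CPM over the 6 mice.

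Some of the members with the most UMIs in their lists did not pass in either fit, namely Tm4sf1 (5694 ± 905 CPM), Fabp4 (12445 ± 2829), Icam1 (1809 ± 409), Cav1 (1194 ± 166), Gja1 (217 ± 42.1), Ifitm3 (4182 ± 422), H2-D1 (4451 ± 700.1), Sparc (2680 ± 515), Col4a1 (707 ± 113) and Junb (5608 ± 915).

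**Figure D5:**
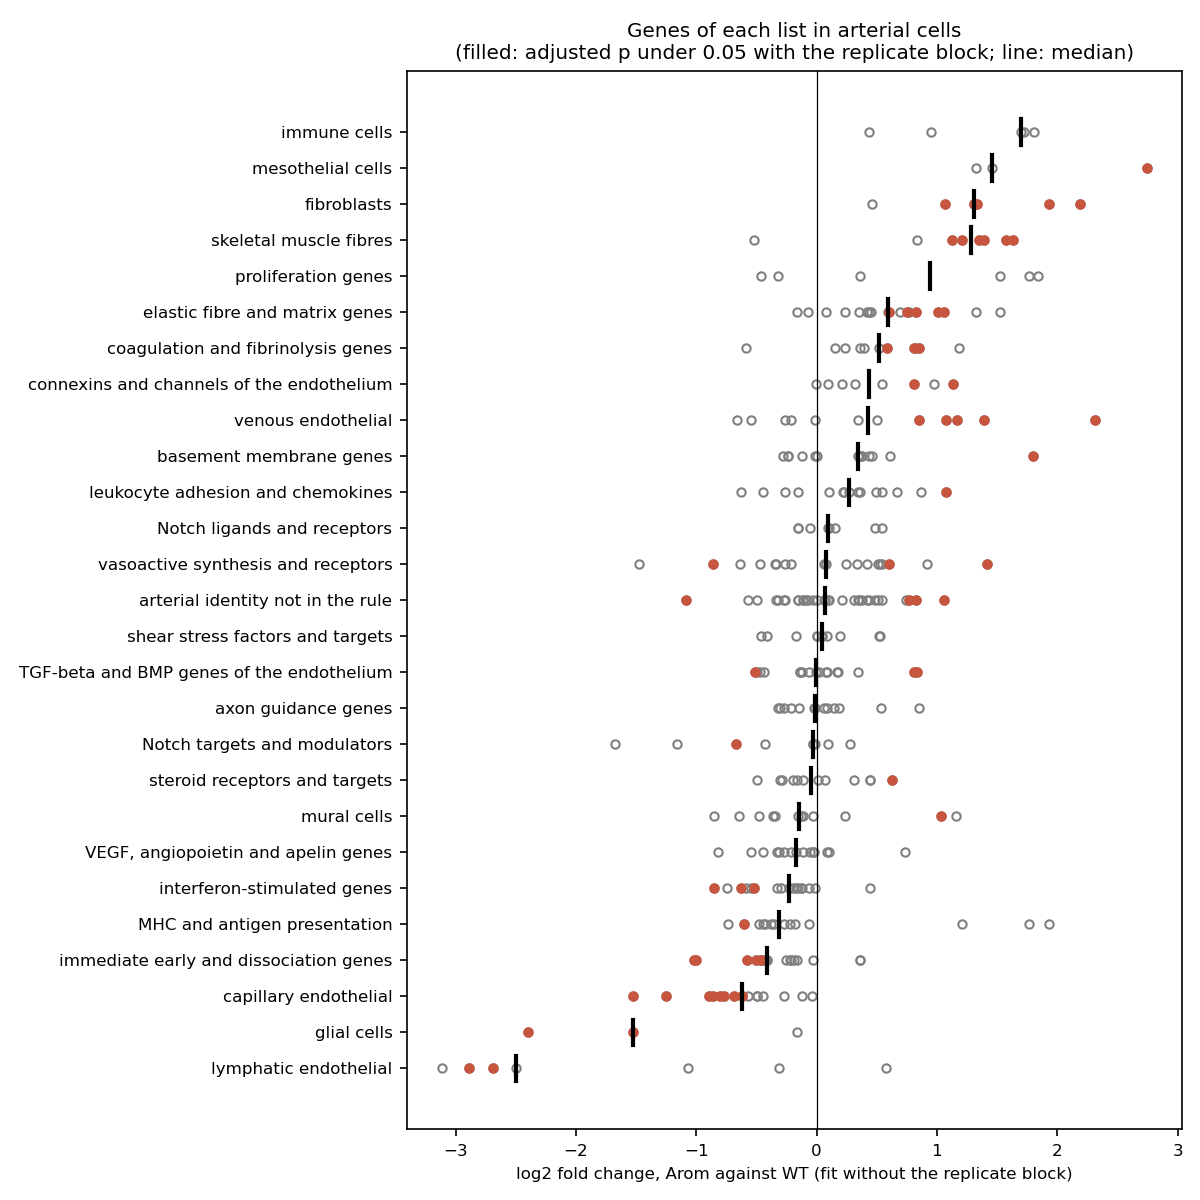
Log2 fold change between Arom and WT of each tested gene in 27 lists, from the fit without the block; circles are genes, filled where the gene passed with the block, and the black line is the median of the list. The 16 capillary genes all lie below 0 (median -0.62) and the 7 fibroblast genes above 0 (median 1.31).

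The plot of changes by list also shows the markers of other cells. Skeletal muscle fibre genes were higher in 7 of 8 (median 1.28), 6 passing with the block and none of them without mural or lymphatic cells. Their sum was 118 to 418 CPM in WT and 252 to 1207 CPM in Arom mice. Of 7 lymphatic genes 6 had a negative change (median -2.50), and Mmrn1 (-2.89) and Reln (-2.69) passed with the block. The sum of the lymphatic genes was 187 to 722 CPM in WT and 69.5 to 168 CPM in Arom mice. Without mural or lymphatic cells it was 43.2 to 53.2 against 51.2 to 75.3 CPM. Of the 2 lymphatic genes tested there 0 were lower (median 1.14) and 0 passed. Glial genes summed to 63.8 to 221 CPM against 9.43 to 93.6 CPM, with 2 of 3 passing lower with the block, among them Mbp (-1.53). Mesothelial genes summed to 2.62 to 40.1 CPM against 58.6 to 119 CPM, with Msln passing higher with the block and none without it. Without mural or lymphatic cells their sum was 4.13 ± 2.93 CPM in WT and 90.3 ± 36.7 CPM in Arom mice. Of the 2 mesothelial genes tested there, 2 passed higher without the block (median 6.06) and 2 with it. Immune genes had a median of 1.70, at 14.6 to 308 CPM against 74.2 to 347 CPM. Mural genes were at 1559 to 1655 CPM against 1172 to 1929 CPM, with Myh11 (by the rule) and Cnn1 at 0 and Tagln (1.04) passing higher with the block. Their median was -0.14. Without mural or lymphatic cells they were at 302 to 341 against 455 to 515 CPM, with a median of 0.81. Of the 4 tested there 2 passed higher with the block. The part of these other cell types in the results was not tested.

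Genes of estrogen synthesis and response had few UMIs. Human CYP19A1 had 1, 2 and 0 UMIs in the arterial cells of the Arom mice and 0 in WT, against 770, 797 and 787 UMIs over the whole Arom libraries. For Esr1, the estrogen receptor alpha, 11, 3 and 28 UMIs were counted in WT and 6, 7 and 13 in Arom arterial cells (3.91 ± 2.66 and 5.89 ± 2.17 CPM, SD, n = 3), a log2 fold change of 0.45 (adjusted p = 0.82, SE 0.59), which did not pass at these few UMIs. Fibroblasts held Esr1 at 70.9 CPM. Pgr and Greb1, targets of estrogen receptors, were at no more than 4.71 CPM in any mouse. Nr3c1, the glucocorticoid receptor, was at 189 ± 28.1 and 169 ± 27.0 CPM and its target Fkbp5 at 6.18 ± 0.39 and 7.02 ± 3.65 CPM. Of 12 steroid genes tested, Errfi1 passed with the block (0.63, adjusted p = 0.021), an inhibitor of EGF receptor signalling.

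Whether the genotype effect differed between arterial and other blood endothelial cells was tested as an interaction with the mouse as a term. It called 213 of 12453 genes (1.71%), 94 with a higher and 119 with a lower effect in arterial cells. With Cdh5 and Pecam1 both required in every cell it called 0 of 10791 genes by edgeR, with 700 at an unadjusted p under 0.05. The comparison cells of Arom mice held more mesothelial and fibroblast RNA, at sums of 1378 ± 212 against 160 ± 95.7 CPM and 13078 ± 836 against 5391 ± 1019 CPM, and with both genes required 105.1 ± 27.9 against 34.9 ± 24.1 and 3647 ± 989 against 1517 ± 390 CPM. The interaction called 12 genes without Arom replicate 2, 40 without Arom replicate 1, 78 without WT replicate 1, 76 without WT replicate 3 and 139 without WT replicate 2. Of the capillary list 0 genes were called in either version.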

How the data were processed

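Single-cell RNA of the LAM of 6 mice was sequenced by the 10x Genomics 3' protocol. The deposited values were raw UMI counts per gene and barcode, made by the authors with Cell Ranger 3.0.2 on mm10 with human CYP19A1 added, 16494 genes and 63647 barcodes in all; the filter on genes is not given in the sources used here. UMIs of the members were summed per mouse, so the mouse was the replicate. Sums were tested with edgeR 4.0.16 (TMM, filterByExpr, quasi-likelihood test, Benjamini-Hochberg, adjusted p under 0.05), with the 12 rule genes in the fit but not among the tests. Shares were compared by exact permutation tests. Named genes were those called, list members called (some are given as counts), the 3 members of each endothelial list with the most UMIs, 7 steroid genes, the 20 highest and 10 lowest ratios against other endothelial cells at 50 CPM or more, and the 6 smallest p of the interaction in each direction. Applying this to the fit with the block, and the genes named in the Gkn3 split, among channels and endothelin processing, and Sox17, were chosen after their values were seen. The members and lists were chosen with earlier results of these data known.

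The deviations of same-numbered mice from the group means had correlations of 0.226, 0.110 and 0.307, and mice of different numbers were not compared. The pairing comes from those values and the study's statement that 1 mouse of each genotype was processed on each date. The labels do not give the date of a mouse. On simulated counts for the genotype comparison without the block (9492 genes), 55% of 2-fold and 92% of 4-fold changes were recovered with 5.16% false calls. The counts were drawn with no pair effect, and the fit with the block was not simulated. Libraries held 64958237 to 111826460 UMIs, and 6.86% to 29.5% of their barcodes were over the mitochondrial limit of 10% and left out. Alternatives were DESeq2 1.42.0, other size factors, no gene filter, the replicate block, each mouse left out, other cell limits, thinning, and, chosen after the data were seen, leaving out the highest doublet scores, splitting by Gkn3 and requiring both Cdh5 and Pecam1. Some results are not reported here.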

Additional observations from a re-analysis of the deposited data

Results flagged for a closer look

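Of the 213 genes whose genotype effect differed between arterial and other blood endothelial cells (edgeR interaction, adjusted p under 0.05), the 6 with the smallest p in each direction are given. The difference of the log2 effects, arterial minus other, was 1.09 for Egfl7, 1.41 for Jag2, 1.60 for Gm11730, 1.03 for Tie1, 0.82 for Epas1 and 0.88 for Icam2. It was -2.25 for Mgst1, -1.33 for Acaa2, -1.46 for Gas6, -3.83 for Lcn2, -1.73 for Spint2 and -0.96 for Crip1. The effect in arterial cells lay between -0.82 and 0.55 in all 12, and that in the other cells between -1.34 and 3.23. With Cdh5 and Pecam1 both required, the differences were 0.44 for Egfl7, 0.80 for Jag2, 0.95 for Gm11730, 0.37 for Tie1, 0.21 for Epas1 and 0.23 for Icam2. They were -0.90 for Mgst1, -0.077 for Acaa2, -0.30 for Gas6, -2.09 for Lcn2, -0.52 for Spint2 and -0.19 for Crip1, and none of the 12 passed.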

How the results depend on the processing

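Of 1596 values of 77 genes under the alternatives, 1247 kept their direction and their side of the threshold, 311 passed only under the alternative, 18 no longer passed and 20 reversed, in 9 genes. Genes named for passing with the block are among the 77, and the block is itself an alternative. Part of the 311 therefore follows from how the genes were picked. The count of genes between genotypes (2) was 97 by DESeq2, 113 with no filter on low counts, 243 with the replicate block, 43 without mural and lymphatic markers, 13 with the study's limits, 19 thinned to 1000 UMIs, 106 without a Gkn3 UMI, 4 with both Cdh5 and Pecam1, and 0 to 16 with 1 mouse left out. With the replicate block it was 100 without mural and lymphatic markers, 279 without a Gkn3 UMI and 0 with one. edgeR called 0 with at least 3 arterial genes (748 at an unadjusted p under 0.05), without doublets (1028), without the highest doublet scores (957) and with a Gkn3 UMI (358), against 97 by DESeq2 on all arterial cells.

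The interaction count (213) was 358 with no filter, 92 with at least 3 arterial genes, 32 with the study's limits, 378 without doublets, 425 without the highest doublet scores, 0 with both Cdh5 and Pecam1 (700 at an unadjusted p under 0.05), 72 against cells with 0 or 1 arterial gene, and 12 to 195 with 1 mouse left out. The difference in the share of blood endothelial cells ran from -3.30 to -0.828 percentage points with 1 mouse left out and reversed to 0.173 with the study's limits and 0.516 thinned to 1000 UMIs; paired by replicate block its sign-flip p was 0.5.

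Reversed log2 changes with the study's limits were 0.10 for Iigp1, 0.045 for Lpl and -0.39 for Pi16, and with a Gkn3 UMI 0.25 for Adm, 0.55 for Lpl and -0.75 for Ptgs2 (0.077, 0.55 and -0.73 with the block). Without mural and lymphatic markers Acta1 was at -0.57 and Tnnt3 at -0.37 (-0.13 and -0.12 with the block). Ptgs2 was at -0.54 with at least 3 arterial genes and -0.13 without the highest doublet scores. With 1 mouse left out, Acta1 ran from -0.12 (without Arom replicate 2) to 2.04, Mmp3 from -0.10 (without Arom replicate 1) to 7.67 and Esr1 from -0.025 (without WT replicate 2) to 1.06. Esr1 was at -0.38 with at least 3 arterial genes and -0.064 without doublets. The cause of these changes was not tested. Esr1 rested on 3 to 28 UMIs in the arterial cells of a mouse, and fewer cells met the rule when thinned.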
